A study of Mus musculus with 8 samples.

Results

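The mRNAs of 43 splicing regulators were examined in livers of LWT and LΔ*Rbfox2* mice: the SR proteins, the Tra2 proteins, the hnRNPs, the CELF, MBNL, STAR and TIA proteins, and ELAVL1, ESRP2 and RBM5. Their rows were found among the 46078 gene identifiers of the count table by gene symbol in the GRCm38 annotation, all 43 were present, and 42 held enough counts to be tested. The series holds 8 livers, 4 of each genotype, with 1 library per liver. All mice carried *Rbfox2* loxP/loxP alleles, per the study. LWT controls, labelled wild-type, had no Albumin-cre transgene, and LΔ*Rbfox2* mice had it, which is active mainly in hepatocytes. All 8 mice were fed a control diet (CD, given as chow in the labels) for 12 weeks and were fasted (16 h) before the liver was taken. The study used male mice that entered the diets at 8 weeks of age. In bulk tissue, fewer cells of a type and less RNA per cell cannot be told apart.

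Splicing regulators bind short motifs in pre-mRNA and decide whether an exon is kept. SR proteins, named for their arginine-serine domain, usually promote the use of exons they bind, and hnRNPs often oppose it. Many of these genes also control their own level: their transcripts carry an exon that, when kept, brings in a premature stop codon and sends the mRNA to nonsense-mediated decay. RBFOX2, the protein removed in LΔ*Rbfox2* livers, binds the letters GCATG and acts beside many of these factors on shared exons. The question asked here is whether the mRNA of the other regulators differed when RBFOX2 was lost from hepatocytes.

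The targeted gene was lower in every LΔ*Rbfox2* liver. *Rbfox2* mRNA was at 17.1, 10.4, 11.4 and 18.3 CPM (counts scaled to library size, here with TMM factors) in LWT replicates 1 to 4. It was at 4.61, 6.09, 2.24 and 3.19 CPM in LΔ*Rbfox2* replicates 1 to 4. The log2 fold change, always LΔ*Rbfox2* over LWT, was −1.82, with a standard error (SE) of 0.32 from limma-voom. Total counts per liver lay between 37482458 and 56177588, and 3 counts, the limit used for a gene with none, correspond to 0.047 to 0.093 CPM, for counting error only. The TMM factor was 0.724 in LΔ*Rbfox2* replicate 3 and 0.776 in replicate 4, against 1.02 to 1.14 in the other 6 livers. In these 2 livers the major urinary protein (*Mup*) genes took 43.6% and 37.5% of all counts, and in the others 21.4% to 37.1%. Hepatocyte markers were abundant in every liver: the CPM of *Alb*, *Apoa1*, *Ttr*, *Apoc3* and *Serpina1c* summed to between 44396 and 72127.

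Which of these genes carry RBFOX2's letters in an exon tied to mRNA decay can be read from the GENCODE M21 transcripts on GRCm38. Of the 43 genes, 26 have an annotated nonsense-mediated decay transcript. In 16 of the genes, such a transcript has an internal exon that overlaps no exon of a coding transcript. These 16 genes hold 29 such exons, counting overlapping forms separately, and 5 of the 29 (17.2%) contain GCATG on the transcript strand. Across all genes, 336 of 2590 such exons did (13%). Only the transcript strand was searched, as the protein binds RNA, and only inside these exons. The introns beside them were not searched, so other members may hold the motif there. The 5 exons belong to *Tra2b*, *Srsf4* and *Srsf3*, and the windows below are shown because these are the members where a decay exon holds the motif. GCATG is in capitals, with 12 bases on each side, written 5′ to 3′ as DNA letters.
*Tra2b*, chr16:22259133-22259161, minus strand: aaaagaaagaatGCATGctaattatcaga
*Tra2b*, chr16:22258923-22258951, minus strand: tttgctaaacatGCATGcattatttgttt
*Srsf4*, chr4:131886267-131886295, plus strand: atacagagaaaaGCATGtggcacagttgt
*Srsf3*, chr17:29039605-29039633, plus strand: tttggttcccgaGCATGctgttttctctc

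*Tra2b* has 2 sites in a decay exon of 397 bases (chr16:22258865-22259261), of which a shorter form of 276 bases holds only the first. The *Srsf4* site lies in decay exons of 198 and 174 bases that end at the same position, and the *Srsf3* site in one of 456 bases (chr17:29039454-29039909). Its other short skipped coding exon, of 54 bases, lacking the motif, *Mbnl1* is shown as well, with a coding exon of 36 bases that holds it. The exon of 36 bases lies at chr3:60621423-60621458 on the plus strand. It is kept in 7 and skipped in 1 of the 14 coding transcripts of *Mbnl1*. Coding exons of the other members were not searched, so the motif does not set *Mbnl1* apart.
*Mbnl1*, exon of 36 bases: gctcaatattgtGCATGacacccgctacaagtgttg

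A match is a description of letters, not of binding, and the counts are per gene, so they do not say how often any of these exons was kept.

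No splicing regulator passed the test between genotypes. With edgeR's quasi-likelihood test and Benjamini–Hochberg adjustment over all 13856 genes, 0 of 42 members had an adjusted *P* of at most 0.05, where 0% of all genes did. The smallest adjusted *P* of a member was 0.504. limma-voom and DESeq2 also placed 0 members under this threshold. By edgeR the targeted gene, *Rbfox2*, itself had an adjusted *P* of 0.504, and by DESeq2 one of 2.3e-04. The 0 of 42 members by edgeR is thus no evidence that they were unchanged. At an unadjusted *P* under 0.05 there were 2 members by edgeR (4.76%), *Mbnl1* higher and *Srsf4* lower in LΔ*Rbfox2* livers, against 9.79% of all genes (7.95% higher and 1.83% lower). By limma-voom there was 1 such member, against 7.07% of all genes, and by DESeq2 there were 3, against 11.3%. The share of members under this level was below that of genes at large by each tool. It rests on 1 to 3 members, and the tools read the same 8 livers, so it is not a result about the members. The values of 1 member (2.38%), *Mbnl1*, did not overlap between genotypes, against 2.28% of all genes (1.05% higher and 1.23% lower).

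The differences were small. The log2 fold change was within 0.5 of 0 for 41 of the 42 members, the exception being *Srsf5* at −0.68. It was above 0 for 12 members (28.6%, against 48.4% of all genes) and below 0 for 30, with a median of −0.09 against −0.02 over all genes tested. For 42 of 42 members the range between livers of at least 1 genotype exceeded the difference between genotypes, and for 39 both ranges did. The exceptions to the latter were *Srsf4*, *Hnrnpa2b1* and *Mbnl1*. *Mbnl1* and *Srsf4* are also the 2 members under the unadjusted level. Shares over all genes were not computed for the count within 0.5 or for the ranges, so these counts do not set the members apart. The intervals still allow sizeable changes for the variable members: the plot of differences shows 95% intervals from −1.49 to 0.35 for *Srsf5* but from −0.33 to 0.32 for *Hnrnpf*.

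**Figure D1:**
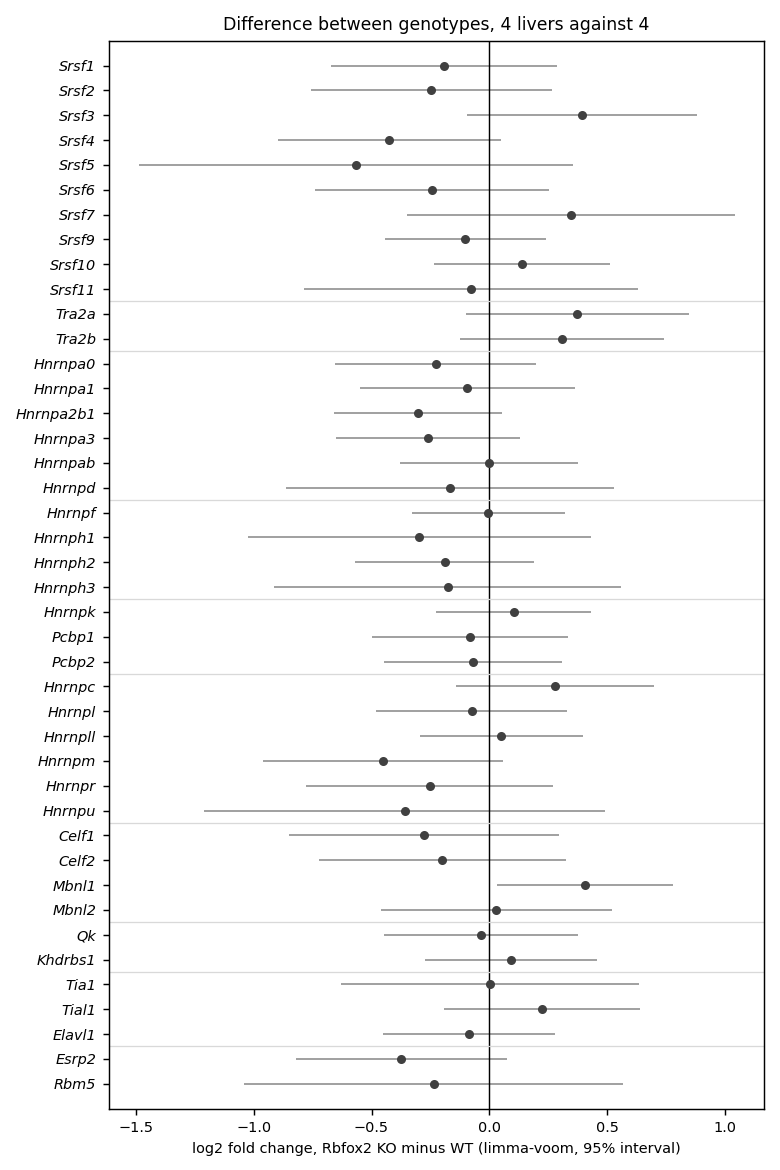
Log2 fold change of LΔ*Rbfox2* (Rbfox2 KO) over LWT (WT) livers for the 42 tested members, from limma-voom, with 95% intervals as bars (4 livers against 4); grey lines part the role groups. The interval of *Mbnl1* (0.03 to 0.78) is the one that leaves out 0, before adjustment for the number of genes.

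Per kilobase of annotated exon, the members spanned a wide range of levels. The highest in LWT livers was *Pcbp1*, at 38.7 CPM per kilobase, then *Hnrnpf* at 33.4, *Hnrnpab* at 27.5, *Pcbp2* at 25.8 and *Hnrnpa2b1* at 25.4. The lowest were *Tia1* at 0.287, *Celf2* at 0.304 and *Hnrnpr* at 0.725 CPM per kilobase. These lengths join all annotated exons, including long retained-intron forms, so genes with many such forms are placed low. *Mbnl3*, an MBNL protein of developing tissue, was the member not tested, with 2, 3, 4 and 1 counts in the LWT livers and 5, 5, 1 and 2 in the LΔ*Rbfox2* livers. All members together took 0.183% to 0.224% of the counts in 6 livers, 0.111% in LΔ*Rbfox2* replicate 3 and 0.131% in LΔ*Rbfox2* replicate 4, the 2 livers with the lowest TMM factors. After TMM scaling the sums lay between 1530 and 2024 CPM.

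**Figure D2:**
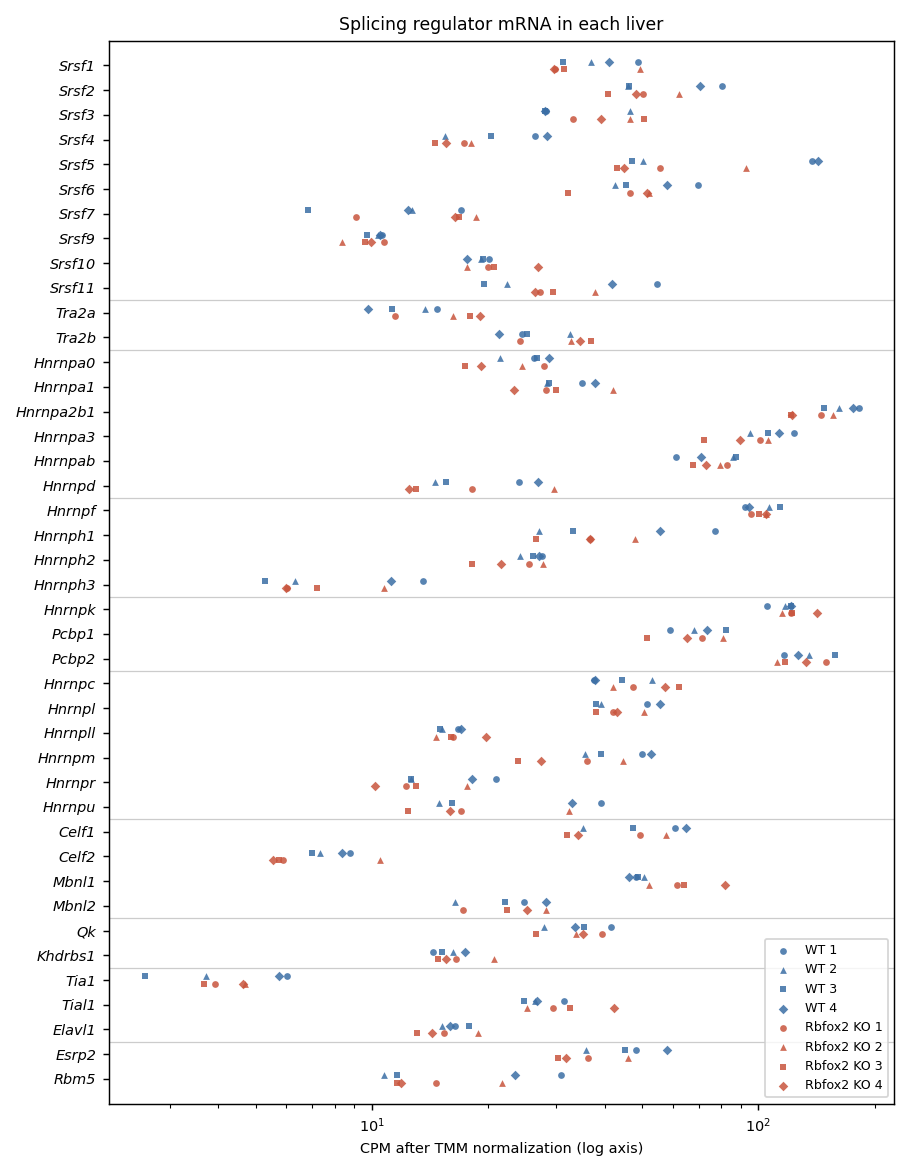
Level of the 42 tested members in each of the 8 livers, as TMM-normalized CPM on a log axis (not per length). Blue symbols are LWT (WT) livers, red are LΔ*Rbfox2* (Rbfox2 KO) livers, and the symbol's shape gives the replicate; the 2 colours overlap for every gene but *Mbnl1*.

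Of the 10 SR proteins, 0 passed the adjusted threshold, 3 had a log2 fold change above 0 and 7 below, and the median was −0.18. *Srsf5*, which encodes the SR protein SRp40, varied most within a genotype. It was at 137, 50.3, 47.2 and 143 CPM in the LWT livers and at 55.6, 92.6, 43.1 and 44.8 CPM in the LΔ*Rbfox2* livers. LWT replicates 1 and 4 were far above LWT replicates 2 and 3, which lay among the LΔ*Rbfox2* livers. The log2 fold change of −0.68 (SE 0.41, edgeR unadjusted *P* = 0.131, adjusted *P* = 0.55) was smaller than the range within LWT of 1.6 on the log2 scale.

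*Srsf4*, an SR protein with a long arginine-serine domain (chr4:131873617-131901706, plus strand, overlapped on the other strand by *Gm12992*), was at 26.3, 15.4, 20.3 and 28.3 CPM in the LWT livers. It was at 17.3, 18.1, 14.5 and 15.5 CPM in the LΔ*Rbfox2* livers. LWT replicate 2 lay among the LΔ*Rbfox2* livers, and the other 3 LWT livers lay above them all. Its log2 fold change was −0.46 (SE 0.21, edgeR unadjusted *P* = 0.0496, adjusted *P* = 0.504), and the adjusted *P* lay between 0.196 and 0.912 in the other settings. The unadjusted *P* was 0.0732 with limma-voom, 0.0504 with robust estimation, and 0.155 without LWT replicate 4.

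*Srsf3*, the smallest SR protein, had the highest log2 fold change of the group. It was at 28.2, 46.5, 28.0 and 28.0 CPM in the LWT livers and at 33.1, 46.4, 50.6 and 39.2 CPM in the LΔ*Rbfox2* livers. LWT replicate 2 stood apart from 3 nearly equal LWT livers, all of them below every LΔ*Rbfox2* liver. This gave a log2 fold change of 0.37 (SE 0.22, edgeR unadjusted *P* = 0.12, adjusted *P* = 0.546). Without LWT replicate 2 it was 0.59 (unadjusted *P* = 0.0112, adjusted *P* = 0.228, edgeR), in a fit where 18.1% of all genes had an unadjusted *P* under 0.05.

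*Srsf1*, the founding SR protein, was at 48.7, 36.9, 31.3 and 41.0 CPM in the LWT livers and at 29.7, 49.4, 31.4 and 29.7 CPM in the LΔ*Rbfox2* livers. LΔ*Rbfox2* replicate 2 held the highest value of all 8 livers, and the other 3 LΔ*Rbfox2* livers lay near the lowest LWT liver. Between genotypes the log2 fold change was −0.17 (SE 0.22, edgeR unadjusted *P* = 0.447) and was −0.38 without that liver. The members whose pattern over the 8 livers was most like that of *Srsf1* were *Celf2*, *Hnrnpr* and *Hnrnph3*. Pearson's r of log2 CPM with *Srsf1* was 0.94, 0.91 and 0.90 in this order, and Spearman's rho 0.93, 0.86 and 0.83. Without the 2 livers farthest from the median of *Srsf1*, r was 0.91, 0.83 and 0.78. The points share libraries and TMM factors, and these r values are descriptions.

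The other SR proteins were *Srsf2* (60.8 ± 17.5 CPM in LWT and 50.4 ± 8.92 CPM in LΔ*Rbfox2* livers, SD, n = 4), *Srsf6* (53.9 ± 12.6 and 45.5 ± 9.22 CPM) and *Srsf11* (34.5 ± 16.6 and 30.2 ± 5.23 CPM). *Srsf10*, a regulator linked to stress and heat shock, was at 19.1 ± 1.04 and 21.3 ± 3.95 CPM. *Srsf7* was at 12.2 ± 4.16 and 15.2 ± 4.21 CPM, and *Srsf9* at 10.3 ± 0.398 and 9.65 ± 0.97 CPM. For each of these 6 genes the range within both genotypes exceeded the difference between them. The log2 fold change of *Srsf9*, −0.09, was −0.36 after length correction (edgeR unadjusted *P* = 0.0494, adjusted *P* = 0.56, between 0.56 and 0.934 over all settings).

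Both Tra2 proteins, SR-like activators that bind purine-rich exons, had log2 fold changes above 0, in the main fit and in all 20 other settings, though neither passed the test. *Tra2a* was at 14.8, 13.7, 11.3 and 9.74 CPM in the LWT livers and at 11.5, 16.2, 17.9 and 19.0 CPM in the LΔ*Rbfox2* livers. *Tra2b* was at 24.4, 32.5, 25.2 and 21.3 CPM in the LWT livers and at 24.1, 32.6, 36.9 and 34.6 CPM in the LΔ*Rbfox2* livers. For both genes, LΔ*Rbfox2* replicates 2, 3 and 4 lay above every LWT liver and LΔ*Rbfox2* replicate 1 lay among them. In *Tra2b*, LΔ*Rbfox2* replicate 2 did so by a small margin (32.6 CPM against 32.5 CPM in LWT replicate 2). For *Tra2a* the log2 fold change was 0.38 (SE 0.21, edgeR unadjusted *P* = 0.0973, adjusted *P* = 0.531). For *Tra2b* it was 0.31 (SE 0.19, edgeR unadjusted *P* = 0.137, adjusted *P* = 0.554). *Tra2b* and *Srsf3*, whose decay exons hold GCATG, had log2 fold changes above 0, and *Srsf4*, the third such gene, had one below 0.

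The 6 hnRNP A/B/D genes all had log2 fold changes below 0, with a median of −0.18, and 0 of them passed the test. *Hnrnpa2b1*, which encodes an exon-repressing and RNA-sorting hnRNP, was at 182, 162, 148 and 176 CPM in the LWT livers and at 145, 156, 121 and 122 CPM in the LΔ*Rbfox2* livers. Only LΔ*Rbfox2* replicate 2 reached into the LWT range. Its log2 fold change was −0.30 (SE 0.16, edgeR unadjusted *P* = 0.0934, adjusted *P* = 0.529), and the unadjusted *P* from DESeq2 was 0.0447. At the other end of the group, *Hnrnpab* was at 61.3, 85.9, 87.5 and 70.8 CPM in the LWT livers and at 82.8, 79.5, 67.5 and 73.2 CPM in the LΔ*Rbfox2* livers. Its LΔ*Rbfox2* values all lay inside the LWT range, with a log2 fold change of −0.01 (SE 0.17, edgeR unadjusted *P* = 0.944) that turned sign in 4 of the 8 fits with 1 liver left out.

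In the same group, *Hnrnpa3* was at 110 ± 12.0 CPM in LWT and 92.2 ± 14.9 CPM in LΔ*Rbfox2* livers (SD, n = 4). *Hnrnpa1*, the archetypal exon repressor, was at 32.4 ± 4.65 and 30.9 ± 7.95 CPM, *Hnrnpa0* at 25.8 ± 3.14 and 22.2 ± 4.81 CPM, and *Hnrnpd*, also known as AUF1, at 20.3 ± 6.14 and 18.3 ± 7.92 CPM. In both *Hnrnpa1* and *Hnrnpd*, LΔ*Rbfox2* replicate 2 was the highest of all 8 livers and LΔ*Rbfox2* replicate 4 the lowest.

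The 4 hnRNP F/H genes, whose proteins bind runs of G, also had log2 fold changes below 0, with a median of −0.23. *Hnrnph1* was at 77.2, 27.1, 33.0 and 55.7 CPM in the LWT livers and at 36.7, 47.8, 26.6 and 36.6 CPM in the LΔ*Rbfox2* livers. LWT replicates 1 and 4 were again the highest, and the other LWT livers were below most LΔ*Rbfox2* livers. *Hnrnph1* had a log2 fold change of −0.38 (SE 0.33, edgeR unadjusted *P* = 0.262), and −0.08 without LWT replicate 1. *Hnrnpf* was the steadiest member, at 92.5, 107, 114 and 94.4 CPM in the LWT livers and at 95.5, 105, 100 and 105 CPM in the LΔ*Rbfox2* livers. Its LΔ*Rbfox2* values all lay inside the LWT range, with a log2 fold change of −0.01 (SE 0.15, edgeR unadjusted *P* = 0.954). *Hnrnph2* was at 26.3 ± 1.5 and 23.2 ± 4.25 CPM, and *Hnrnph3* at 9.08 ± 3.94 and 7.49 ± 2.22 CPM (LWT and LΔ*Rbfox2*, SD, n = 4).

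The poly(C)-binding KH proteins act in splicing, translation and mRNA stability, and their 3 genes had small differences. *Hnrnpk* was at 105, 117, 122 and 122 CPM in the LWT livers and at 121, 115, 122 and 142 CPM in the LΔ*Rbfox2* livers. Apart from LΔ*Rbfox2* replicate 4, all livers lay between 105 and 122 CPM, and the log2 fold change was 0.10 (SE 0.15, edgeR unadjusted *P* = 0.496). *Pcbp1* was at 58.9, 68.1, 82.4 and 73.5 CPM in the LWT livers and at 71.4, 81.0, 51.4 and 65.5 CPM in the LΔ*Rbfox2* livers. *Pcbp2* was at 117, 135, 158 and 126 CPM in the LWT livers and at 150, 112, 117 and 133 CPM in the LΔ*Rbfox2* livers. Genotypes were interleaved in both genes, with a log2 fold change of −0.07 each (SE 0.19 for *Pcbp1* and 0.17 for *Pcbp2*, edgeR unadjusted *P* = 0.706 and 0.685).

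Of the 6 other hnRNPs, 2 had log2 fold changes above 0 and 4 below. *Hnrnpc*, which binds U-tracts and keeps cryptic exons out of mRNA, was at 37.6, 53.2, 44.3 and 37.7 CPM in the LWT livers and at 47.3, 42.1, 62.5 and 57.3 CPM in the LΔ*Rbfox2* livers. LΔ*Rbfox2* replicates 3 and 4 were highest, LWT replicate 2 came next, and the log2 fold change was 0.28 (SE 0.19, edgeR unadjusted *P* = 0.171, adjusted *P* = 0.572). *Hnrnpm*, which binds GU-rich RNA, was at 49.9, 35.6, 39.1 and 52.7 CPM in the LWT livers and at 35.9, 44.7, 23.9 and 27.3 CPM in the LΔ*Rbfox2* livers. *Hnrnpm* lay in the order opposite to *Hnrnpc*, with LΔ*Rbfox2* replicates 3 and 4 lowest. Its log2 fold change was −0.43 (SE 0.23, edgeR unadjusted *P* = 0.0891, adjusted *P* = 0.527), and −0.61 without LΔ*Rbfox2* replicate 2 (unadjusted *P* = 0.0165, adjusted *P* = 0.135). Without that liver 24.9% of all genes had an unadjusted *P* under 0.05 by edgeR. The annotation places *March2* on the same strand within the *Hnrnpm* region, so reads in the overlap are uncertain.

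*Hnrnpu*, a nuclear scaffold protein that binds chromatin-associated RNA, was at 25.7 ± 12.1 and 19.4 ± 8.83 CPM (LWT and LΔ*Rbfox2*, SD, n = 4) and ranged 3.15-fold over the 8 livers. *Hnrnpl* was at 46.0 ± 8.92 and 43.4 ± 5.25 CPM, its paralogue *Hnrnpll* at 16.0 ± 1.04 and 16.7 ± 2.16 CPM, and *Hnrnpr* at 16.1 ± 4.17 and 13.3 ± 3.13 CPM. None of these 4 differed beyond the range within either genotype.

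*Mbnl1* encodes muscleblind-like 1, which binds YGCY motifs and drives the switch from fetal to adult splicing, in which the CELF proteins often oppose it. It lies at chr3:60472830-60629750 on the plus strand, with no annotated gene overlapping it. *Mbnl1* was at 48.3, 50.6, 48.9 and 46.1 CPM in the LWT livers and at 61.6, 52.2, 64.0 and 81.7 CPM in the LΔ*Rbfox2* livers. The LWT livers were closely grouped, every LΔ*Rbfox2* liver lay above them all, and LΔ*Rbfox2* replicate 2 did so by a small margin. The log2 fold change was 0.42 (SE 0.17, a 1.34-fold difference, edgeR unadjusted *P* = 0.0301, adjusted *P* = 0.504), higher in 4 of 4 livers. A two-sided exact permutation test gave *P* = 0.0286, the lowest value possible with 4 livers per genotype. Any gene whose values do not overlap gets this *P*, so it only restates the separation, which 2.28% of all genes showed in either direction. The adjusted *P* lay between 0.111 and 0.912 in the other settings. It was 0.18 on the log2 scale when libraries were corrected for GC content (unadjusted *P* = 0.205) and 0.66 after one for gene length (unadjusted *P* = 0.0618). Without 1 liver it stayed between 0.29 and 0.51, the lowest being without LΔ*Rbfox2* replicate 4. *Mbnl1* has 18717 bases of annotated exon and 39.7% GC.

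The paralogue *Mbnl2* showed no such separation, at 22.8 ± 4.99 and 23.2 ± 4.69 CPM (LWT and LΔ*Rbfox2*, SD, n = 4), with a log2 fold change of 0.02. *Celf1* was at 60.9, 35.2, 47.3 and 64.9 CPM in the LWT livers and at 49.4, 57.6, 32 and 34.1 CPM in the LΔ*Rbfox2* livers. Its genotypes overlapped widely, with a log2 fold change of −0.27 (SE 0.26, edgeR unadjusted *P* = 0.317). *Celf2* was at 8.75, 7.33, 6.99 and 8.36 CPM in the LWT livers and at 5.89, 10.5, 5.73 and 5.54 CPM in the LΔ*Rbfox2* livers. LΔ*Rbfox2* replicate 2 was the highest of all, as in *Srsf1*, and the other 3 LΔ*Rbfox2* livers were the lowest of all. The log2 fold change of *Celf2* was −0.18 (SE 0.23, edgeR unadjusted *P* = 0.466, adjusted *P* = 0.735), and −0.46 without LΔ*Rbfox2* replicate 2 (unadjusted *P* = 0.0273, adjusted *P* = 0.162). In the fit without this liver, 24.9% of all genes had an unadjusted *P* under 0.05. The members most like *Celf2* over the 8 livers were *Srsf1*, *Hnrnpa1* and *Hnrnpd*, with Pearson's r of 0.94, 0.89 and 0.88.

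The STAR proteins QK and KHDRBS1 (Sam68) bind bipartite motifs as dimers. *Qk* was at 41.5, 27.8, 35.3 and 33.5 CPM in the LWT livers and at 39.3, 33.8, 26.5 and 35.2 CPM in the LΔ*Rbfox2* livers. *Khdrbs1* was at 14.4, 16.2, 15.2 and 17.5 CPM in the LWT livers and at 16.5, 20.7, 14.8 and 15.6 CPM in the LΔ*Rbfox2* livers. The genotypes were interleaved in both, with log2 fold changes of −0.03 for *Qk* (SE 0.18) and 0.10 for *Khdrbs1* (SE 0.16), and edgeR unadjusted *P* of 0.851 and 0.57.

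Among the binders of U-rich RNA, *Tial1* was at 31.4, 26.5, 24.8 and 26.7 CPM in the LWT livers and at 29.5, 25.1, 32.6 and 42.2 CPM in the LΔ*Rbfox2* livers. Only LΔ*Rbfox2* replicates 3 and 4 lay above the LWT range, and the log2 fold change was 0.24 (SE 0.19, edgeR unadjusted *P* = 0.222). Its paralogue *Tia1*, which like *Tial1* helps the U1 snRNP at weak 5′ splice sites, was at 6.04, 3.72, 2.58 and 5.73 CPM in the LWT livers and at 3.93, 4.70, 3.66 and 4.64 CPM in the LΔ*Rbfox2* livers. All LΔ*Rbfox2* values lay inside the LWT range, with a log2 fold change of −0.09 (SE 0.28, edgeR unadjusted *P* = 0.751). *Elavl1*, which encodes the mRNA-stabilizing protein HuR, was at 16.3 ± 1.14 and 15.4 ± 2.44 CPM (LWT and LΔ*Rbfox2*, SD, n = 4).

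*Esrp2*, the epithelial splicing regulator of hepatocytes, was at 48.2, 35.8, 45.0 and 58.1 CPM in the LWT livers and at 36.3, 46.1, 30.3 and 31.8 CPM in the LΔ*Rbfox2* livers. LΔ*Rbfox2* replicates 3 and 4 were lowest, with a log2 fold change of −0.37 (SE 0.20, edgeR unadjusted *P* = 0.091, adjusted *P* = 0.527). *Rbm5*, which encodes a regulator of exons in apoptosis genes, was at 30.9, 10.7, 11.6 and 23.5 CPM in the LWT livers and at 14.6, 21.7, 11.6 and 11.9 CPM in the LΔ*Rbfox2* livers. Its highest livers were LWT replicates 1 and 4 and LΔ*Rbfox2* replicate 2, as in *Srsf5*, and the log2 fold change was −0.36 (SE 0.36, edgeR unadjusted *P* = 0.343).

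This trio of livers recurred. LWT replicates 1 and 4 and LΔ*Rbfox2* replicate 2 were the 3 highest livers for 19 of the 42 members (45.2%), among them *Srsf1*, *Srsf2*, *Srsf5*, *Srsf11*, *Hnrnph1*, *Hnrnph3*, *Hnrnpu*, *Celf2* and *Rbm5*, against 19.2% of all genes tested. They were the 3 lowest for 1 member, *Hnrnpc* (2.38%), against 17.4% of all genes. The trio was chosen after the values were seen and crosses the genotypes. The median member lay 0.23, 0.20 and 0.20 log2 above its 8-liver mean in these livers, in the same order, and between 0.07 and 0.21 below it in the other 5. The SR proteins had medians of 0.44, 0.21 and 0.25 in the trio, which held the 3 highest livers for 5 of the 10. *Srsf3* lay below its mean in LWT replicates 1 and 4, at −0.37 and −0.38, and *Srsf9* and *Srsf10* did not follow the trio either. High in the trio too were the hnRNP F/H genes, at medians of 0.48, 0.31 and 0.22, though *Hnrnpf* among them was at −0.13, −0.10 and 0.05. So were the other hnRNPs (0.32, 0.34 and 0.22), the CELF and MBNL genes (0.20, 0.26 and 0.32) and *Esrp2* with *Rbm5* (0.61, 0.54 and 0.32). The KH genes were not, at −0.19, 0.02 and −0.07, nor were the Tra2 genes, at −0.07, −0.47 and 0.21.

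**Figure D3:**
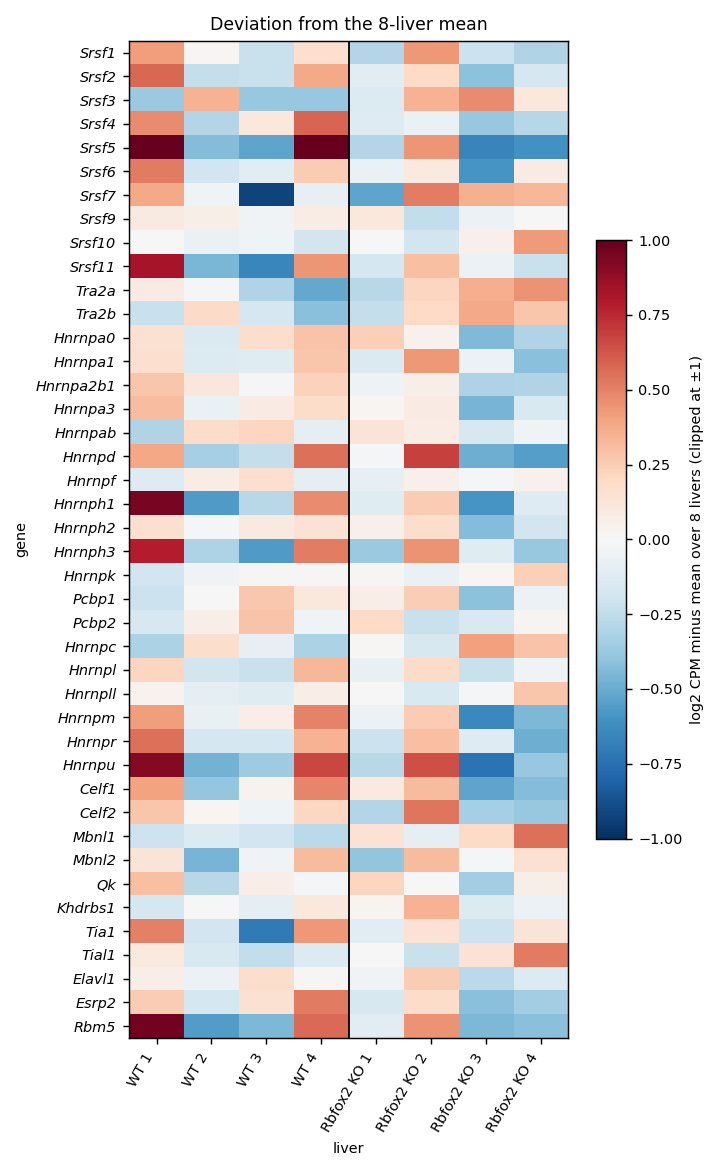
Log2 CPM of each tested member minus its mean over the 8 livers (colour, red above and blue below the mean), with genes in rows by role group and livers in columns; the black line parts LWT (WT) from LΔ*Rbfox2* (Rbfox2 KO). WT 1, WT 4 and Rbfox2 KO 2 are mostly red, and Rbfox2 KO 3 is the lowest liver for 16 genes.

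A property of whole libraries moved with this pattern. Genes were ranked by their total annotated exon length. Over all genes tested, the longest 25% of genes lay above the shortest 25% by 0.61, 0.54 and 0.44 log2 in the trio. In LΔ*Rbfox2* replicates 3 and 4 the difference was −0.65 and −0.59, the longest lying below the shortest. The main axis of log2 CPM over all genes, with 54.1% of the variance, placed the trio on one side and the other 5 livers on the other. LΔ*Rbfox2* replicate 3 was the lowest liver for 38.1% of the members and for 21% of all genes. The *Mup* share did not follow the trio, at 37.1%, 29.1% and 26.1% in it. The part of this length difference in the members' pattern was not tested. The spread between livers of 1 genotype was over 2-fold for 8 members in LWT and for 4 in LΔ*Rbfox2* livers.

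**Figure D4:**
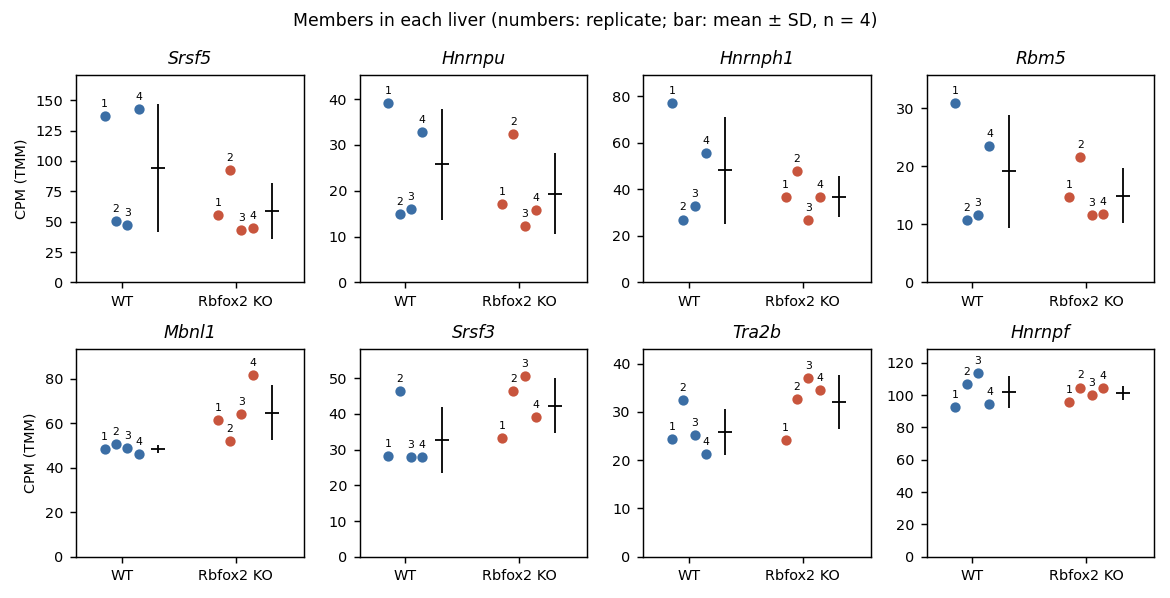
TMM-normalized CPM of 8 members in each liver (points, with the replicate number), with mean ± SD beside them (n = 4 per genotype), on linear axes from 0. In the upper row (*Srsf5*, *Hnrnpu*, *Hnrnph1*, *Rbm5*) WT 1, WT 4 and Rbfox2 KO 2 are high; in the lower row *Mbnl1* has no overlap, *Srsf3* and *Tra2b* overlap through few livers, and *Hnrnpf* is level.

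The number of members under an unadjusted *P* of 0.05 depended on single livers. Without LΔ*Rbfox2* replicate 2 there were 7 members by edgeR, 1 higher (*Mbnl1*) and 6 lower (*Srsf4*, *Srsf5*, *Hnrnpa2b1*, *Hnrnpm*, *Celf2* and *Esrp2*), against 24.9% of all genes. Without LWT replicate 2 there were 5, against 18.1% of all genes. There were 2 without LΔ*Rbfox2* replicate 1, both higher (*Tra2a* and *Mbnl1*), against 7.35%, and 1 without LWT replicate 3, *Srsf5*, against 6.07%. There were 0 without LWT replicate 1, LWT replicate 4, LΔ*Rbfox2* replicate 3 or LΔ*Rbfox2* replicate 4, where 4.3%, 3.59%, 4% and 2.92% of all genes were under this level. None of these fits placed a member at an adjusted *P* of at most 0.05.

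The rest of the splicing machinery was described with a list of 90 genes, of which 78 could be tested: kinases and importers of SR proteins, the snRNPs, decay and exon junction factors, and other regulators. By edgeR, 0 of the 78 passed the adjusted threshold. At an unadjusted *P* under 0.05, 6 were higher and 3 lower, where 7.95% and 1.83% of all genes were. The 3 lower genes were *Rbfox2*, which is the targeted gene, *Ptbp2*, and *Rbfox3*, which had only 7 to 18 counts per liver. DESeq2 placed 2 of the 78 under an adjusted *P* of 0.05, *Rbfox2* and *Ptbp2*, where it called 10 of 13844 genes (0.0722%). *Ptbp2*, the neural paralogue of the polypyrimidine tract-binding protein PTBP1, was at 7.0, 5.81, 5.66 and 6.29 CPM in the LWT livers. It was at 2.47, 2.67, 1.66 and 3.41 CPM in the LΔ*Rbfox2* livers, all below every LWT liver. Its log2 fold change was −1.28 (SE 0.23, edgeR unadjusted *P* = 2.7e-04, adjusted *P* = 0.504, DESeq2 adjusted *P* = 3.7e-04), larger than that of any of the 42 members. *Ptbp1* was at 43.4, 24.4, 41.0 and 47.8 CPM in the LWT livers and at 41.1, 37.9, 20.9 and 32.4 CPM in the LΔ*Rbfox2* livers, with overlap between genotypes.

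The other 4 genes of this list with the smallest *P* were higher in LΔ*Rbfox2* livers, without passing the adjusted threshold. They were *Magoh* of the exon junction complex (log2 fold change 0.81), *Snrpe* of the Sm ring (0.98), and *Sf3b6* (0.97) and *Snrpb2* (0.66) of the U2 snRNP, each with an edgeR adjusted *P* of 0.504. *Snrpe* was at 9.85, 15.4, 8.53 and 7.11 CPM in the LWT livers and at 21.6, 8.73, 20.9 and 29.5 CPM in the LΔ*Rbfox2* livers. LΔ*Rbfox2* replicate 2 lay among the LWT livers and the other 3 above them all. Of the 7 Sm ring genes, 3 were higher at an unadjusted *P* under 0.05 and 7 had a log2 fold change above 0, with a median of 0.54, where 7.95% of all genes were higher at this level and 48.4% were above 0. With DESeq2 size factors or upper-quartile factors 6 were above 0, and with the gene length correction 5. The 3 at an unadjusted *P* under 0.05 became 1 with GC content and length corrections together. They became 0 without LWT replicate 3, LWT replicate 4 or LΔ*Rbfox2* replicate 4, 1 without LWT replicate 1, LΔ*Rbfox2* replicate 1 or LΔ*Rbfox2* replicate 3, and 5 without LΔ*Rbfox2* replicate 2. The 9 kinases and importers of SR proteins had a median of −0.24, with 1 above 0 and 8 below, and 0 under an unadjusted *P* of 0.05.

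Markers of other liver cells were present at low levels. The 6 Kupffer cell markers summed to between 59.6 and 103 CPM in LWT and between 33.8 and 66.4 CPM in LΔ*Rbfox2* livers, and 3 of the 6 (*Clec4f*, *Csf1r* and *Cd68*) were lower at an unadjusted *P* under 0.05, as were 1.83% of all genes. The other 3 did not pass, with log2 fold changes of −0.42 for *Cd5l*, −0.10 for *Adgre1* and 0.48 for *Marco*. Sinusoidal endothelial markers summed to between 54.5 and 81.1 CPM over all livers, and stellate cell markers to between 87.6 and 171 CPM. By edgeR, 0 of these 12 had an unadjusted *P* under 0.05. Of 5 cholangiocyte markers 4 could be tested, with sums between 14.5 and 30.9 CPM in 7 livers and 60.6 CPM in LΔ*Rbfox2* replicate 3, and 0 passed. Of 6 lymphocyte markers 1 (*Ptprc*) could be tested, at 1.47 to 3.42 CPM. The part of these cells in the members' values was not tested.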

How the data were processed

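Per the labels and the methods of the study, poly(A)-enriched RNA of frozen livers was sequenced (100-base paired reads), and the authors aligned it to GRCm38 with TopHat2 2.0.11 and deposited featureCounts counts per gene, whole numbers without normalization. CASAVA 1.8.4 is named in the submitters' processing notes. The featureCounts version, strand and multi-mapping settings are not given in the sources used here. Annotated genes overlap 3 of the 43 members on the same strand and 16 on the other, so their shared reads are uncertain, as are reads shared with processed pseudogenes. Time on the diet is 12 weeks in the labels and longer in the methods. GENCODE M21 matched 45143 identifiers and gave symbols, exon lengths, GC content and the printed sequences.

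Counts were fitted in R 4.3.3 with edgeR 4.0.16 (filterByExpr, minimum count 10, TMM, glmQLFTest, genotype as the only term, Benjamini–Hochberg over 13856 genes). Log2 values used a prior count of 2, and standard errors came from limma-voom (limma 3.58.1). DESeq2 1.42.0, other size factors and filters, robust estimation, GC content and length corrections (lowess, span 0.3), a replicate block and each liver left out were the alternatives. The fits were tested on simulated counts in which 200 genes were shifted between genotypes. When the true shift was 1 on the log2 scale, 14 of these genes were found by edgeR (7%), 11 by limma-voom (5.5%) and 78 by DESeq2 (39%). False calls numbered 3, 2 and 43 in the same order. When the shift was 2, the tools found 149, 149 and 163, with 4, 5 and 33 false calls. Most simulated shifts of 1 were thus missed by each tool. Separate animals are not stated beyond separate liver samples. Libraries of 1 genotype were not copies (chi-square of at least 97.8 per degree of freedom). Values are named in full for members with an unadjusted *P* under 0.05 or no overlap, the highest and lowest of each role group, members with 1 liver set apart, and 8 splicing factors that the study names. Of the other lists, up to 6 genes of smallest *P* are named, and *Ptbp1*, *Rbfox3*, *Hnrnpu* in the figure and the trio of livers were chosen after values were seen. The members and lists were chosen with earlier results of these data known. Protein sequences and exon-level splicing were not analysed here.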

Additional observations from a re-analysis of the deposited data

Results flagged for a closer look

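In 3 of 84 groups of 4 livers (42 members in 2 genotypes), 1 liver lay far from the other 3 by Dixon's criterion, where chance alone gives about 1 in 20 groups, or 4.2. *Srsf1* was at 49.4 CPM in LΔ*Rbfox2* replicate 2 and between 29.7 and 31.4 CPM in the other LΔ*Rbfox2* livers. *Celf2* was at 10.5 CPM in the same liver and between 5.54 and 5.89 CPM in the others. *Srsf3* was at 46.5 CPM in LWT replicate 2 and between 28.0 and 28.2 CPM in the other LWT livers.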

How the results depend on the processing

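No member reached an adjusted *P* of at most 0.05 in any of 12 alternatives or 8 fits with 1 liver left out. The number of members with an unadjusted *P* under 0.05, 2 in the report, was 1 with limma-voom, without a filter on low counts, with robust estimation and after GC content correction, 0 with the replicate block and 3 with DESeq2. The genes changed too: *Hnrnpa2b1* joined *Mbnl1* and *Srsf4* with DESeq2 and stood alone after GC content correction. With length correction they were *Srsf4* and *Srsf9*, and with both corrections *Hnrnpa2b1* and *Srsf9* (log2 fold change −0.38). The number lay between 0 and 7 with 1 liver left out. The genes of the related list past the adjusted threshold were 2 with DESeq2 and 0 otherwise. Over all genes, DESeq2 placed 10 past it and edgeR 0, and genes with an unadjusted *P* under 0.05 were between 335 and 3451, against 1356.

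Log2 fold changes turned sign in 17 of 504 values of single members under alternatives, and in 24 of 336 with 1 liver left out. 24 of 42 members turned in none. *Mbnl2* was at −0.013 with upper-quartile factors, −0.0047 without a filter and −0.0079 after GC content correction, which also gave *Srsf10* −0.029, *Hnrnpk* −0.035, *Pcbp1* 0.045 and *Hnrnpll* −0.14. *Tia1* was at 0.0014 with limma-voom and 0.19 after length correction, which also gave *Srsf11* 0.0017, *Hnrnpl* 0.017, *Hnrnpr* 0.0093, *Celf2* 0.019, *Qk* 0.18 and *Elavl1* 0.058, and moved the STAR median to 0.18 and that of the U-rich binders to 0.19. Both corrections, with or without the block, gave *Hnrnpl* 0.14. With 1 liver left out, the log2 fold change lay between −0.26 and 0.042 for *Hnrnpa1*, −0.13 and 0.060 for *Hnrnpab*, −0.48 and 0.022 for *Hnrnpd*, −0.076 and 0.049 for *Hnrnpf*, and −0.17 and 0.021 for *Hnrnpl*. It lay between −0.030 and 0.12 for *Hnrnpll*, −0.015 and 0.15 for *Khdrbs1*, −0.11 and 0.14 for *Mbnl2*, −0.17 and 0.010 for *Pcbp1*, and −0.16 and 0.018 for *Pcbp2*. It lay between −0.13 and 0.039 for *Qk*, −0.39 and 0.098 for *Srsf11*, and −0.28 and 0.060 for *Tia1*. What turned these signs in fits with all 8 livers was not tested.

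With the replicate number as a block, 335 genes had an unadjusted *P* under 0.05, among them 0 of the Sm ring (3 without the block), and *Mbnl1* had a log2 fold change of 0.40 (edgeR unadjusted *P* = 0.115, adjusted *P* = 0.831). With the replicate block and both corrections 0 members had an unadjusted *P* under 0.05. Deviations of same-numbered livers correlated, across genes, at 0.13, −0.61, 0.12 and −0.51. Values for differently numbered livers are not given here, so these cannot decide whether the numbers pair the livers. The number of livers (4 per genotype) and gene-level counts limit what can be seen. The limma-voom 95% intervals held 0 for every tested member but *Mbnl1*. The common dispersion of the edgeR fit was 0.0992.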
